A study of Homo sapiens with 6 samples.

Results

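The collagen genes were taken as the rows of the deposited expression table whose gene name is COL, a number, A and a number, which gave 44 genes with 1 row each, out of 61280 rows in all. They were followed in MDA-MB-231 cells, an established human breast cancer line of triple-negative type. The irradiated group received 20 Gy of X-rays and was then kept in culture for 24 h, and the control group was the same line without treatment, with 3 libraries in each group. No culture time is given for the controls, so that time and irradiation cannot be told apart, and nothing in the labels tells whether replicates were grown apart. The p-values therefore speak of the spread among these libraries, and that spread may be technical. Values are TPM, a transcript level scaled for transcript length and for the library total. Read depth is unknown. In bulk RNA fewer expressing cells and less RNA per cell cannot be told apart.

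Collagens are secreted or membrane-bound proteins built from chains with long glycine-rich repeats that wind into a triple helix. Fibrillar types form the cables of connective tissue, type IV forms the sheet of basement membranes, FACIT types (fibril-associated collagens with interrupted triple helices) sit on fibrils, type VI forms beaded filaments near cells, and transmembrane types are anchored in the plasma membrane. In tissue most fibrillar collagen comes from fibroblasts, while carcinoma cells are known to make collagens of several classes. Trimers may need more than one kind of chain, so the levels of partner chains are given side by side.

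A gene was tested if it reached 1 TPM in at least 3 of the 6 libraries, and 19 of the 44 collagen genes did. Of these, 17 reached 1 TPM in every library, and the others, COL9A3 and COL23A1, did so in some libraries of both groups. COL11A1 reached it in 1 library and the remaining 24 in none. Transmembrane collagens were the class with most TPM, and of the major fibrillar chains COL1A1 held 6.69 to 13.2 TPM while COL1A2, COL2A1 and COL3A1 stayed under 1 TPM in every library. After irradiation COL17A1 and COL6A2 rose and COL13A1 fell; no other collagen gene passed the test. Those 3 are 15.8% of the 19 tested, where 10.6% of all 14621 tested genes passed (limma on log2(TPM + 1), Benjamini-Hochberg adjusted p under 0.05), so the share was near that of all genes. By direction, 2 collagen genes were higher against a background of 6.53% and 1 was lower against 4.07%. The median log2 change of the 19 was 0.19, beside 0.03 over all tested genes, and 16 of the 19 values were above 0, as were 54.9% of all values. The collagen median was 0.11 after quantile normalization and 0.12 after correction for G and C content and transcript length, beside -0.01 and 0.03 over all genes. With a filter of 5 TPM it was 0.12 over 13 collagen genes, beside -0.0006 over all genes. After median-ratio scaling it was 0.16, beside -0.0007.

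The control libraries held 14248 to 14417 genes at 1 TPM or more and the irradiated libraries 14592 to 14889. Over all genes 955 were called higher and 595 lower. After median-ratio scaling the split was 778 higher and 852 lower. The 8 genes listed as marks of this line, among them VIM and CD44, were all expressed. They summed to 7044.6 to 7445.6 TPM in controls and 6747.7 to 7116.6 TPM after irradiation. VIM (1935.6 to 2011.3 and then 1582.9 to 1598.6 TPM), AXL, CAV1 and MSN were lower without overlap. KRT8 was higher without overlap, and CD44, LGALS1 and KRT18 overlapped. ESR1 (at most 0.39 TPM) and PGR (listed at 0) were not expressed. Both belong to a list of 8 luminal genes, of which 5 did reach 1 TPM in at least 3 libraries. These were ERBB2, GATA3, FOXA1, EPCAM and KRT19 (keratin 19, at 150.6 to 168.0 TPM). The luminal list summed to 192.8 to 202.1 TPM in controls and 206.2 to 208.0 TPM after irradiation. Of 8 fibroblast markers, which include COL3A1 and COL6A3, only PDGFRB and LUM reached 1 TPM in at least 3 libraries. The list summed to 3.62 to 4.44 TPM in controls and 6.19 to 7.24 TPM in irradiated libraries. PDGFRB lay at 2.44 to 2.93 TPM in controls and 3.58 to 5.09 TPM after irradiation, and LUM at 0.56 to 1.05 and 1.33 to 1.89 TPM, neither with overlap. DCN, PDGFRA and FAP of the same list were at or under 0.16 TPM in every library, and THY1 at or under 0.45 TPM. Skeletal muscle markers summed to 1.38 to 1.64 TPM in controls and 2.07 to 2.21 TPM after irradiation. Among them 1 of 6 (DES, 0.56 to 1.61 TPM) was at 1 TPM in at least 3 libraries, and MYOD1 was at 0. Endothelial markers summed to 1.74 to 2.33 TPM and 1.71 to 2.53 TPM, with 1 of 5 (PECAM1) at 1 TPM in at least 3 libraries. Leukocyte markers summed to at most 1.29 TPM in controls but to 41.0 TPM in irradiated replicate 1, through PTPRC alone (40.4 TPM there and 0.11 to 0.45 TPM in the other libraries). The part of these shifts in the collagen results was not tested.

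**Figure D1:**
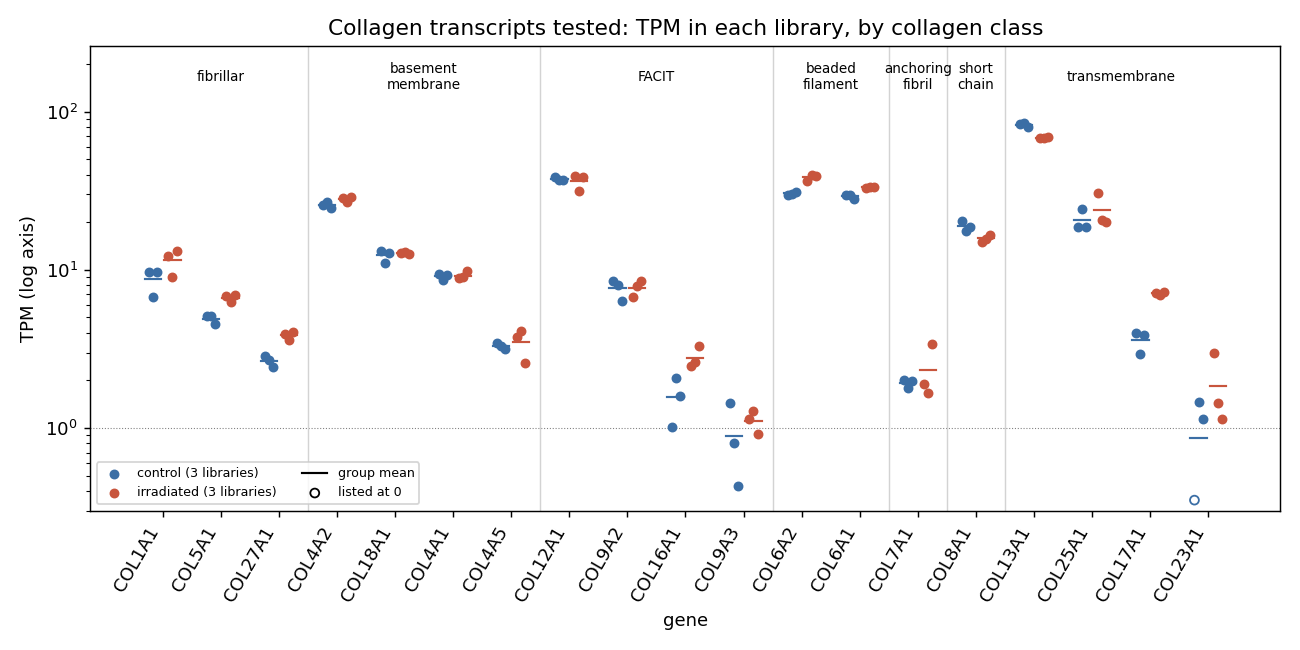
TPM of the 19 tested collagen genes in each library (log axis), grouped by collagen class; blue points are the 3 control and red points the 3 irradiated libraries, short lines are group means and an open circle marks a value listed at 0. COL13A1 lies highest, near 83 TPM in controls and 68 TPM after irradiation, and the points of COL17A1 form separate groups at 2.94 to 4.01 and 6.97 to 7.28 TPM.

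Transmembrane collagens span the plasma membrane once and carry their triple helix outside the cell, from where it can be shed. All 4 members of this class were tested. COL17A1, the collagen of hemidesmosomes, which fasten epithelial cells to the basement membrane (ENSG00000065618; hg38 chromosome 10, 104031286 to 104085957, minus strand), stood at 4.01, 2.94 and 3.85 TPM in the controls. The irradiated libraries held 7.11, 6.97 and 7.28 TPM. Every irradiated value was thus above every control value, and the irradiated libraries lay close together. The mean went from 3.60 ± 0.577 to 7.12 ± 0.155 TPM (SD, n = 3 per group), a log2 change of 0.83 ± 0.12 (SE; limma adjusted p = 0.0115). This rise was called under all 16 alternatives of processing and left-out libraries, with adjusted p at most 0.0469.

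COL13A1, found at sites of cell adhesion and at the neuromuscular junction (ENSG00000197467; hg38 chromosome 10, 69801867 to 69964275, plus strand), was the most abundant collagen transcript, with 26.9% of the collagen TPM in the controls and 21.4% after irradiation. It ranked 1880 among the 14621 tested genes by mean TPM. Controls held 83.8, 84.9 and 79.4 TPM and irradiated libraries 67.7, 67.6 and 68.7 TPM. The groups did not overlap. The mean fell from 82.7 ± 2.93 to 68.0 ± 0.593 TPM (log2 change -0.28 ± 0.05 SE, limma adjusted p = 0.0151). The call was lost without control replicate 1 (adjusted p = 0.0639 in the limma fit), control replicate 2 (0.0700) or irradiated replicate 3 (0.0501), at log2 changes of -0.26 to -0.29.

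COL25A1, a brain-enriched membrane collagen known from amyloid plaques, was the sixth most abundant collagen. Controls held 18.7, 24.4 and 18.6 TPM and irradiated libraries 30.7, 20.8 and 20.1 TPM. Irradiated replicate 1 was the highest, and the others fell within the control range, so the groups overlapped (log2 change 0.19, 95% interval -0.22 to 0.60; limma adjusted p = 0.518). Without irradiated replicate 1 the log2 change was 0.00. COL23A1, a further shed membrane collagen, was listed at 0, 1.45 and 1.14 TPM in controls and at 2.98, 1.43 and 1.14 TPM after irradiation, with irradiated replicate 1 again highest. Its interval was wide, from -0.23 to 1.55 on the log2 scale, and the groups overlapped. Its log2 change of 0.66 was 0.26 without control replicate 1 and 0.39 without irradiated replicate 1.

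Type VI collagen forms a beaded filament network around cells from a trimer of the COL6A1 and COL6A2 chains with COL6A3, COL6A5 or COL6A6. COL6A2 (ENSG00000142173; hg38 chromosome 21, 46098097 to 46132849, plus strand) held 29.8, 30.3 and 31.1 TPM in the controls and 36.3, 39.8 and 39.2 TPM in the irradiated libraries. The groups did not overlap. The mean rose from 30.4 ± 0.674 to 38.4 ± 1.88 TPM (log2 change 0.33 ± 0.06 SE, limma adjusted p = 0.0189). The call was lost without control replicate 1 (adjusted p = 0.0740 in the limma fit), control replicate 2 (0.0773) or irradiated replicate 3 (0.0651).

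COL6A1, the neighbouring gene on chromosome 21, had 29.6, 29.8 and 28 TPM in controls and 33.0, 33.5 and 33.4 TPM after irradiation. These groups did not overlap either, but the log2 change of 0.19 ± 0.05 missed the threshold (limma adjusted p = 0.0708; 95% interval 0.06 to 0.32). Within a library the ratio of COL6A1 to COL6A2 was 0.994, 0.984 and 0.900 in the controls and 0.910, 0.842 and 0.852 after irradiation. The ratios overlapped between groups, and their difference of -0.14 on the log2 scale had an exact two-sided permutation p of 0.2 (0.3 adjusted over the 3 chain pairs tested; the smallest p that 20 assignments allow is 0.1). The possible partner chains were all low: COL6A3 lay between 0.11 and 0.30 TPM, COL6A6 between 0.01 and 0.25 TPM, and COL6A5 at no more than 0.04 TPM. The summed TPM of the class was 59.2 to 60.4 in controls and 69.6 to 73.5 after irradiation, which, with no test for a sum, is a ratio of the means of 1.204.

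The DNA upstream of the 3 called genes is shown because the stretches differ plainly in composition. They also differ in length, with 235 bases for COL6A2, 211 for COL13A1 and 173 for COL17A1. Whether they act as control regions was not tested. The stretches come from the RefSeq promoter table (GRCh38.p14, the assembly of hg38), run 5′ to 3′ on the strand of the gene, start 250 bases before the RefSeq start site and end before the first annotated exon of GENCODE 29. Capitals mark the letters TATAAA (as in a TATA box), CCAAT and GGGCGG (as in the GC box bound by SP1), read on either strand and at any distance from the start.
COL6A2, chr21:46097862-46098096, plus strand: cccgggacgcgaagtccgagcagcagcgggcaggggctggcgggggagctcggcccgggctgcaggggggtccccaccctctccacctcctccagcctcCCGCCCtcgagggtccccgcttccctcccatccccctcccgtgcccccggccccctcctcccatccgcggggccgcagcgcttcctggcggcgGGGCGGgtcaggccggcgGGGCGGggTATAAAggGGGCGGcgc
COL13A1, chr10:69801656-69801866, plus strand: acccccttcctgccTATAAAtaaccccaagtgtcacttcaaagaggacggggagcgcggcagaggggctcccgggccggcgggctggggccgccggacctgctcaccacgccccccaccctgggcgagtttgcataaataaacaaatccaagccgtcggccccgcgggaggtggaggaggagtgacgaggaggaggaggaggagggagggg
COL17A1, chr10:104085958-104086130, minus strand: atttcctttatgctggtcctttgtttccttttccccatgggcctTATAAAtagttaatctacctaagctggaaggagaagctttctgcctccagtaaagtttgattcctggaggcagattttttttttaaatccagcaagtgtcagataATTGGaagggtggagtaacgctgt
The COL6A2 stretch is 79.6% G and C, with TATAAA starting 32 bases before the RefSeq start and GGGCGG on both sides of it, at 58, 40 and 24 bases, and on the other strand at 151 bases. The COL17A1 stretch is 40.5% G and C, with TATAAA at 206 bases and CCAAT, on the other strand, at 101 bases. In COL13A1, at 66.4% G and C, TATAAA begins 236 bases before the start. TATAAA or its reverse complement TTTATA lies within 250 bases upstream in 10.7% of the 35116 promoters of the table. It was in 5 of the 15 tested collagen genes found there, namely these 3, COL7A1 and COL18A1. GGGCGG or CCGCCC was in 11 of the 15 (42.6% of all promoters) and CCAAT or ATTGG in 4 (32.0%). A match describes the letters at any distance and is neither a measured binding site nor a known TATA box.

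**Figure D2:**
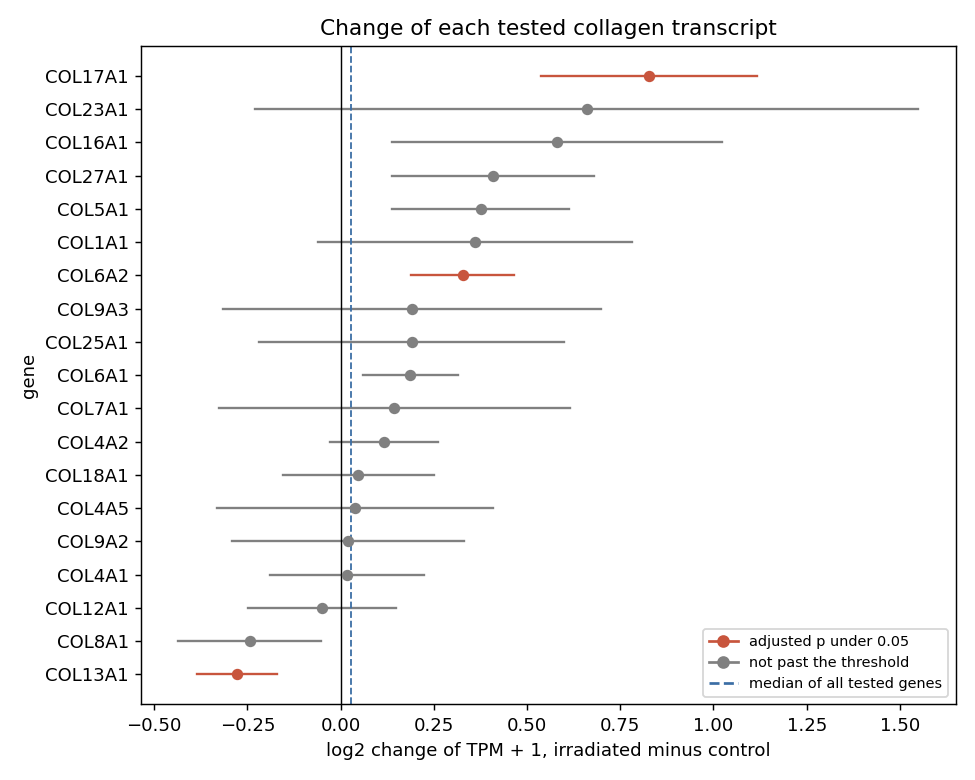
Log2 change of TPM + 1 (irradiated minus control) for the 19 tested collagen genes, with 95% intervals from limma; red marks an adjusted p under 0.05 and the dashed line is the median of all tested genes, 0.03. COL17A1 (0.83) and COL6A2 (0.33) lie to the right, COL13A1 (-0.28) to the left, and the interval of COL23A1 is the widest.

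Fibrillar collagens, the rope-forming types, were mostly at low levels: 3 of 11 were tested and none was called by limma, with 2 of the 3 at an unadjusted p under 0.05. COL1A1, the main chain of type I collagen in bone, skin and scar, held 9.75, 6.69 and 9.67 TPM in the controls and 12.2, 8.99 and 13.2 TPM in the irradiated libraries. Replicate 2 was the lowest of each group and the groups overlapped (log2 change 0.36, 95% interval -0.06 to 0.78; limma adjusted p = 0.239). Without control replicate 2 the log2 change was 0.20. Its partner COL1A2 never exceeded 0.06 TPM and was listed at 0 in irradiated replicate 1. The common form of type I collagen needs both chains, and these libraries held almost none of the COL1A2 transcript.

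COL5A1, which starts and limits fibril growth, held 5.07, 5.13 and 4.52 TPM in controls and 6.85, 6.23 and 6.90 TPM after irradiation. COL27A1, a fibrillar collagen of cartilage, held 2.84, 2.68 and 2.44 TPM and then 3.91, 3.58 and 4.07 TPM. In both genes all irradiated values were above all control values, yet neither passed: the log2 change was 0.38 ± 0.10 (limma adjusted p = 0.0582) for COL5A1 and 0.41 ± 0.12 (limma adjusted p = 0.0646) for COL27A1. In a limma fit without a mean-variance trend both passed (adjusted p = 0.0418 and 0.0342). COL5A2, the usual partner of COL5A1, was below the filter at 0.38 to 0.59 TPM in controls and 0.56 to 0.87 TPM after irradiation.

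COL11A1, a minor fibrillar chain of cartilage often described in tumour stroma, was listed at 0.21, 0 and 8.13 TPM in controls and at 0.04, 0.09 and 0.01 TPM after irradiation. The 8.13 TPM of control replicate 3 stands apart from the other libraries, and its source was not tested, since no reads were used. COL11A2 was at 0.23, 0.60 and 0.57 TPM in controls and 0.79, 0.75 and 0.74 TPM after irradiation, below the filter in all 6 libraries. The summed fibrillar TPM was 18.8, 15.7 and 26.4 in the controls, the last of which includes the COL11A1 value, and 24.9, 20.9 and 26.0 after irradiation. Left out of the sum, a choice made after seeing the data, COL11A1 takes the control sums to 18.6, 15.7 and 18.2, and the ratio of the means from 1.18 to 1.36. The fibrillar sums do not overlap then, but do with COL11A1 counted.

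Of 10 FACIT collagens, 4 were tested and none was called by limma, with 1 at an unadjusted p under 0.05. COL12A1, which bridges type I fibrils, was the second most abundant collagen in the controls. It held 38.4, 37.2 and 37.1 TPM there and 39.0, 31.7 and 38.5 TPM after irradiation. Irradiated replicate 2 was the lowest and the rest lay together (log2 change -0.05, 95% interval -0.25 to 0.15). COL16A1 had 1.01, 2.08 and 1.59 TPM in the controls and 2.46, 2.61 and 3.29 TPM after irradiation, with no overlap, and missed the threshold (log2 change 0.58 ± 0.19, limma adjusted p = 0.0941). COL9A2, a chain of cartilage type IX collagen, stood at 8.54, 7.96 and 6.38 TPM and then 6.77, 7.88 and 8.53 TPM, a full overlap. Its partner COL9A3 lay between 0.43 and 1.43 TPM and overlaps the gene TCFL5 (17.2 to 21.3 TPM) on the other strand by 45 bases. Whether reads of TCFL5 enter the COL9A3 values was not tested. The ratio of COL9A2 to COL9A3 ran from 5.97 to 14.8 in controls and from 5.94 to 9.37 after irradiation, an overlap (exact permutation p = 0.3, also 0.3 adjusted over the 3 pairs). COL9A1, the remaining chain, was at no more than 0.05 TPM.

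Basement membrane collagens showed no called gene among 4 tested of 8, and 0 at an unadjusted p under 0.05 in limma. COL4A1 and COL4A2 encode the chains of the most widespread type IV trimer. COL4A1 held 9.41, 8.57 and 9.23 TPM in controls and 8.81, 8.98 and 9.80 TPM after irradiation, and the groups overlapped (log2 change 0.02, 95% interval -0.19 to 0.22). COL4A2 held 25.7, 26.9 and 24.7 TPM and then 28.3, 27.0 and 28.7 TPM; the groups just failed to overlap, at 26.93 against 26.99 TPM (log2 change 0.12 ± 0.06, limma adjusted p = 0.272). The COL4A1 transcript was thus below its partner in every library, with a ratio of 0.318 to 0.374 in controls and 0.311 to 0.342 after irradiation (exact permutation p = 0.3, also 0.3 adjusted over the 3 pairs).

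Both genes lie head to head on chromosome 13, with 126 bases between their RefSeq start sites, so the same short stretch precedes both of these sites. In GENCODE 29 the genes overlap at their starts. The 30 bases around the ATTGG between the RefSeq starts, which reads CCAAT towards COL4A2, are given below. By the GENCODE 29 coordinates these bases lie inside both genes, within that overlap.
COL4A1 and COL4A2, chr13:110307163-110307192, minus strand: cgccaacaaATTGGggagctcggcccgccg
With no strand setting known, reads from the 1422 bases where the annotated genes overlap cannot be assigned to one of them with certainty. The other type IV chains were lower. COL4A5 held 3.18 to 3.46 TPM in controls and 2.57 to 4.13 TPM after irradiation, while COL4A3, COL4A4 and COL4A6 stayed under 0.6 TPM. COL18A1, whose tail is released as endostatin, held 13.1, 11.1 and 12.8 TPM and then 12.8, 12.9 and 12.6 TPM, with the groups overlapping; it overlaps SLC19A1 (2.59 to 5.05 TPM) on the other strand. COL15A1, its closest relative, was at no more than 0.19 TPM.

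Anchoring fibril and short chain collagens made up the rest. COL7A1, the collagen of the anchoring fibrils below the epidermis, held 2.01, 1.79 and 1.99 TPM in controls and 1.9, 1.67 and 3.38 TPM after irradiation, with irradiated replicate 3 alone above the control range. COL8A1, a short chain that builds hexagonal networks under endothelium, held 20.5, 17.7 and 18.5 TPM in the controls and 15.0, 15.7 and 16.7 TPM after irradiation. All irradiated values were lower, but the change missed the threshold (log2 change -0.24 ± 0.08, limma adjusted p = 0.103). COL8A2 was at no more than 0.05 TPM and COL10A1, the collagen of hypertrophic cartilage, was above 0 in 1 library only.

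**Figure D3:**
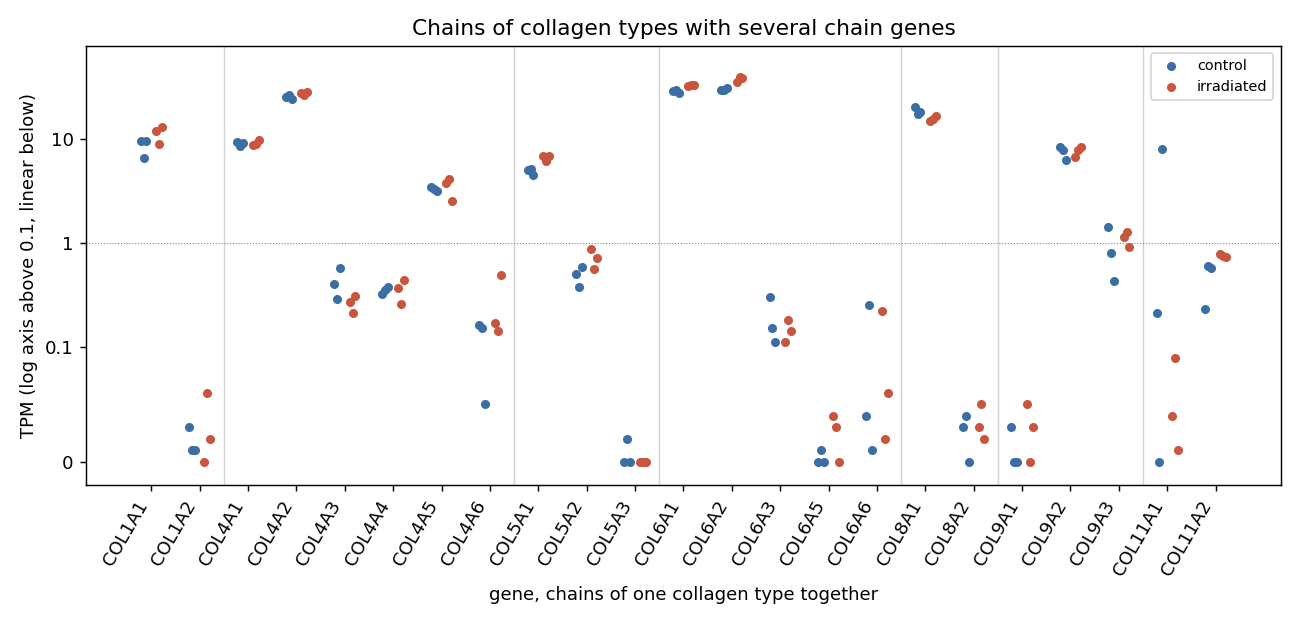
TPM in each library for all chains of collagen types I, IV, V, VI, VIII, IX and XI (log axis above 0.1 TPM, linear below), with blue control and red irradiated points. COL1A1 lies near 10 TPM while COL1A2 is at most 0.06 TPM, COL6A1 and COL6A2 lie together near 30 TPM above COL6A3, and COL11A1 has 1 control value of 8.13 TPM apart from the rest.

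Among the 19 tested genes, 9 had control and irradiated values that did not overlap, 7 higher and 2 lower. This is 47.4%, where 34.9% of all tested genes showed no overlap. Each of these 9, and each of the 3 called genes, had an exact permutation p of 0.1, the smallest that 3 against 3 libraries can give. At an unadjusted p under 0.05 in limma there were 8 of the 19, 6 higher and 2 lower, where 28% of all tested genes passed that mark, 16.9% higher and 11.1% lower. The collagen TPM summed to 309.6, 308.1 and 305.7 in the controls and 324.1, 306.1 and 323.0 after irradiation, so the groups overlapped, with a ratio of the means of 1.03. The 6 most abundant genes, COL13A1, COL12A1, COL6A2, COL6A1, COL4A2 and COL25A1, held 73.4% of it in the controls and 71.7% after irradiation. Transmembrane collagens made up 35% and then 31.7%, and beaded filament collagens 19.4% and then 22.6%. The transmembrane sums overlapped, at 106.5, 113.7 and 103.0 TPM in controls and 108.4, 96.8 and 97.2 TPM after irradiation. The beaded filament sums did not overlap.

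**Figure D4:**
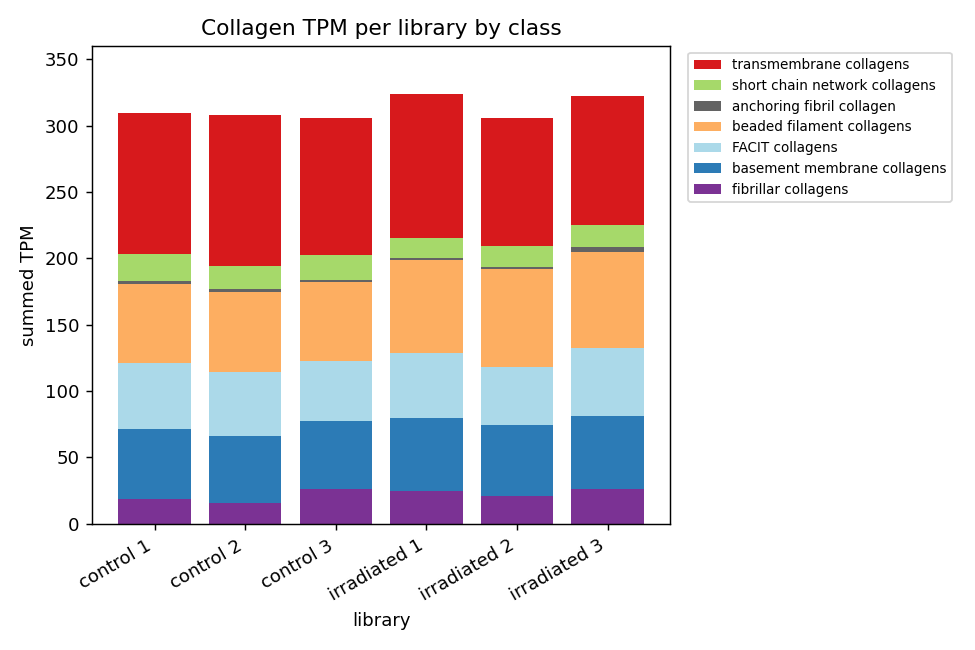
Summed collagen TPM in each library, stacked by collagen class from 0; the 2 unclassified genes, COL26A1 and COL28A1, sum to at most 0.63 TPM and are not drawn. The totals run from 305.7 to 324.1, and the beaded filament band widens from about 60 to about 72 TPM between control and irradiated libraries.

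Of the 25 genes below the filter, 15 never exceeded 0.2 TPM and 10 were listed at 0 in at least 3 libraries. Only COL11A1, COL11A2 and COL5A2 averaged 0.5 TPM or more in a group. The highest value among the other 22 was 0.58 TPM, for COL26A1 in irradiated replicate 3. No change was read from these genes, which were not tested. Transcripts of the 19 tested collagens were rich in G and C, with a median of 61.3% against 48.2% over 12141 tested protein-coding genes, and long, with a median of 6483 against 3667 bases. After removal of trends on G and C content and length the same 3 genes were called, COL17A1 at 0.81, COL6A2 at 0.27 and COL13A1 at -0.34 on the log2 scale.

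The cell modifies collagen chains before they fold, and other genes act in their folding, export, processing, crosslinking, binding and breakdown. Lists of all these, and of fibril-associated genes, were examined beside the chains. Of 74 genes in 8 lists, 48 were tested; 9 rose and 1 fell, 20.8% of those tested where 10.6% of all genes passed. In the prolyl hydroxylation list 1 of 9 tested genes rose and 1 fell, with a list median of 0.05. Both belong to prolyl 3-hydroxylation. P3H2, a prolyl 3-hydroxylase that acts on basement membrane collagen, held 39.8, 40.7 and 40.0 TPM in controls and 31.1, 26.4 and 31.2 TPM after irradiation, and fell (log2 change -0.43 ± 0.08, limma adjusted p = 0.0175). CRTAP, which works in a complex with another prolyl 3-hydroxylase, held 262.3, 250.9 and 252.6 TPM and then 295.4, 290.0 and 287.9 TPM, a rise (log2 change 0.19 ± 0.04, limma adjusted p = 0.0232). P3H2 lost its call in 5 of 16 alternatives and CRTAP in 9, among them the fits without any 1 control library for both (limma adjusted p = 0.0511 to 0.0950).

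None of the 5 genes of lysyl hydroxylation and glycosylation was called by limma (2 at an unadjusted p under 0.05); PLOD3, which does both, went from 64.4 ± 3.09 to 70.6 ± 0.882 TPM, and COLGALT1, a galactosyltransferase, from 56.1 ± 2.16 to 56.1 ± 1.14 TPM. Among 12 chaperone and export genes 2 rose and none fell, with a median of -0.02. SERPINH1, the collagen chaperone HSP47, held 151.0, 153.7 and 147.5 TPM in controls and 165.9, 166.7 and 168.2 TPM after irradiation (log2 change 0.15 ± 0.04, limma adjusted p = 0.0490). SPARC, a collagen-binding matrix protein, held 23.5, 23.6 and 21.1 TPM and then 28.5, 28.1 and 33.8 TPM (log2 change 0.39 ± 0.09, limma adjusted p = 0.0375). Both sets of values did not overlap, and the calls were lost in 12 of 16 alternatives for SERPINH1 and 8 of 16 for SPARC.

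Outside the cell, procollagen ends are cut off and the fibrils crosslinked. Of 4 tested processing genes, PCOLCE2, an enhancer of the C-proteinase, rose from 5.84, 7.31 and 6.21 TPM to 9.24, 9.79 and 9.0 TPM (log2 change 0.48 ± 0.11, limma adjusted p = 0.0330; lost in 9 of 16 alternatives). None of 4 crosslinking oxidases was called by limma (0 at an unadjusted p under 0.05), LOXL2 being the most abundant at 59.8 ± 2.01 and 64.3 ± 4.36 TPM, before LOXL1 at 15.95 ± 2.15 and 17.1 ± 1.93 TPM. Of 5 tested collagen receptors, 2 rose. DDR1, a receptor kinase that collagen activates, held 8.51, 10.6 and 9.13 TPM and then 13.2, 13.9 and 13.5 TPM (log2 change 0.49 ± 0.10, limma adjusted p = 0.0250; lost in 6 of 16 alternatives). MRC2, which takes up collagen fragments, held 15.6, 16.5 and 14.8 TPM and then 19.6, 20.0 and 18.6 TPM (log2 change 0.29 ± 0.07, limma adjusted p = 0.0446; lost in 12 of 16). ITGB1, the beta chain shared by the collagen-binding integrins, held 239.6, 229.1 and 220.6 TPM and then 202.3, 165.7 and 207.5 TPM. It was lower with no overlap but was not called (log2 change -0.27, limma adjusted p = 0.0932).

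Of 5 tested genes of collagen breakdown, MMP3 and MMP14 rose. MMP14, a membrane-bound collagenase, held 65.3, 71.0 and 65.8 TPM in controls and 90.0, 83.6 and 87.5 TPM after irradiation, with no overlap (log2 change 0.36 ± 0.05, limma adjusted p = 0.0111; lost in 2 of 16 alternatives). MMP3, whose substrates include type IV collagen, held 2.08, 2.45 and 1.18 TPM and then 7.72, 8.81 and 7.30 TPM, the widest change of the lists (log2 change 1.65 ± 0.18, limma adjusted p = 0.00552). TGFBI, a collagen-binding adhesion protein, was the 1 called of 4 tested fibril-associated genes. It held 58.1, 58.6 and 58.2 TPM in the controls and 83.8, 75.4 and 84.5 TPM after irradiation (log2 change 0.47 ± 0.06, limma adjusted p = 0.00640), and its call held under all 16 alternatives, as did that of MMP3.

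**Figure D5:**
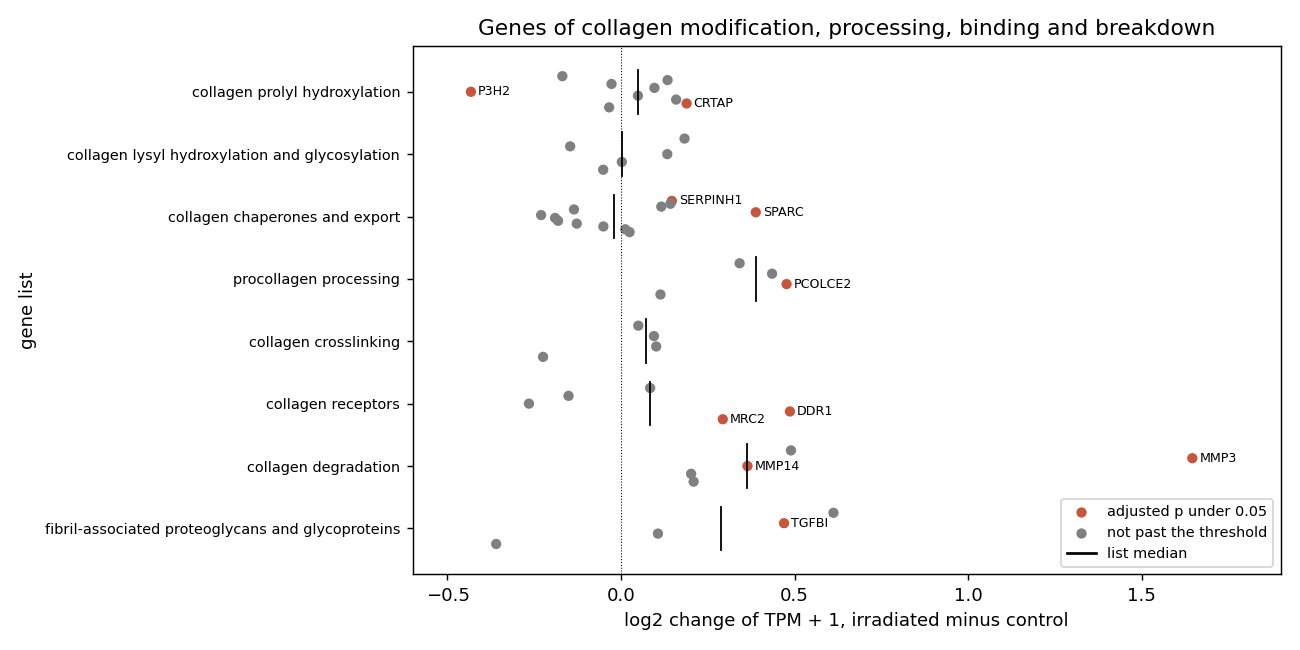
Log2 change of TPM + 1 (irradiated minus control) for the 48 tested genes of 8 collagen-related lists, 1 point per gene; red marks an adjusted p under 0.05 and black lines are list medians. MMP3 (1.65) lies farthest to the right, and P3H2 (-0.43) is the called gene on the left.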

How the data were processed

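Per the labels, TruSeq RNA libraries were made from total RNA of 3 control and 3 irradiated samples. Per the submitters' processing notes, HISAT2, StringTie, RSEM and the build hg38 were used, with no versions or roles; which annotation and strand setting were used is not given in the sources. The authors deposited 1 table of TPM values, 1 column per sample, which keeps no read depth. Groups came from sample titles. Rows with at least 1 TPM in at least 3 samples (14621) were compared as log2(TPM + 1), a scale on which changes of low genes look smaller, with limma 3.58.1 in R 4.3.3 (two-sided, eBayes with trend, 3.39 prior and 4 residual degrees of freedom, Benjamini-Hochberg over all tested rows, threshold 0.05). Chain ratios used an exact permutation test in Python 3.11.15. The fit was tested on simulated data.

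The members, lists and tests were chosen with earlier results of these data known. Named outside the chains were up to 4 called genes with the largest changes per list, or the 2 most abundant where none was called. Also named, after their values were seen, were ITGB1, the neighbours TCFL5 and SLC19A1, the markers and PTPRC. The coordinates, lengths and G and C content of genes came from GENCODE 29 and the promoters from RefSeq (GRCh38.p14). As alternatives, each of the 6 libraries was left out in turn, eBayes was run robustly or without trend, the replicate number was a block, G and C content and length trends were removed (97.4% of tested rows), 37 mitochondrially encoded genes were dropped, samples were quantile normalized or scaled by median ratios, the filter was 5 TPM or absent, and the pseudocount was 0.1. Protein sequences were not used here.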

Additional observations from a re-analysis of the deposited data

How the results depend on the processing

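COL17A1, COL6A2 and COL13A1 were called in each of the 9 alternatives that kept all libraries and had no replicate block. The number of collagen genes called was 3, and 5 (4 higher) with eBayes without trend. Deviations of libraries with the same number correlated at 0.03, -0.06 and -0.03, so the numbers were not taken as pairs. With the replicate block 1 collagen gene was called, COL17A1 (1 higher, 0 lower; limma adjusted p = 0.0593 for COL13A1 and 0.0600 for COL6A2), when 7 were higher and 2 lower at an unadjusted p under 0.05 in limma. Leaving out 1 library gave 1 to 3 collagen genes called, 1 to 2 higher and 0 to 1 lower; COL17A1 alone remained without control replicate 1, control replicate 2 or irradiated replicate 3. The count over all genes was 1550, against 497 with no filter, 993 with eBayes without trend, 362 with the replicate block and 306 to 1390 with 1 library left out. The collagen modification, processing, receptor and breakdown lists held 10 called genes, against 3, 6, 2 and 2 to 8 in the same order. The causes of these shifts were not tested. The 3 chain ratios and the sum over all collagen genes kept their direction in every alternative run for them.

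Small uncalled log2 changes turned sign. COL4A1 was at -0.010 and COL9A2 at -0.0075 after median-ratio scaling, and at -0.027 and -0.031 after quantile normalization, where COL4A5 was at -0.080. COLGALT1 was at -0.028 after median-ratio scaling. After the G and C content and length correction COL12A1 was at 0.021, COL9A2 at -0.056 and COLGALT1 at -0.051. With 1 library left out the log2 change ran from -0.102 to 0.043 for COL12A1, -0.022 to 0.091 for COL18A1, -0.024 to 0.045 for COL4A1, -0.088 to 0.101 for COL9A2, -0.066 to 0.196 for COL4A5, -0.074 to 0.283 for COL7A1 and -0.015 to 0.033 for COLGALT1. The filter of 5 TPM left 13 collagen genes, so the other 6 tested ones had no value there. Depth is unknown, so levels under 1 TPM carry no stated precision.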

Other observations

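Values that stand alone in 1 library, at 5 TPM or more where the other 5 libraries held 0.5 TPM or less, were counted after COL11A1 had been seen. There were 11, 21 and 25 such rows in control replicates 1, 2 and 3 and 8, 17 and 28 in the irradiated replicates. Protein-coding genes were rare among them: there was 1 in control replicate 3, which is COL11A1, and 1 in irradiated replicate 1, which is PTPRC, and 0 in the other 4 libraries.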
